A study of Rattus norvegicus with 12 samples.

Results

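Cytochromes P450 of families 1 to 4 are the haem enzymes with which liver cells oxidise drugs, pollutants, steroids, retinoids and fatty acids. On the arrays analysed here 46 probe sets, standing for 42 genes, measured them, out of 31042 probe sets tested. A probe set is a group of short probes that reads 1 transcript, or several transcripts where these are nearly identical. Members were chosen by name and not by value: each has a single symbol in the platform annotation, and the symbol starts with Cyp1, Cyp2, Cyp3 or Cyp4 followed by a letter. Family 1 gave 3 probe sets, family 2 gave 27, family 3 gave 4 and family 4 gave 12. Cyp2d4, Cyp2j3, Cyp4a8 and Cyp4v3 had 2 probe sets each, and the brighter of the pair stood for the gene. A further 4 P450 probe sets carry several symbols and are not members, since their values cannot be given to 1 gene.

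The samples were primary hepatocytes of Wistar rats, the metabolic cells of the liver taken from the animal and kept briefly in culture. All cultures shared the isolation with collagenase and the Percoll gradient, and treatment started on the following day. The 4 groups were control cultures at 3 h, control cultures at 6 h, and cultures given rat interferon alpha (250 U/ml), a cytokine of the antiviral response, for 3 h or for 6 h, with 3 arrays in each group. The labels call these biological replicates 1 to 3 without saying whether they came from separate animals, so the p-values measure the spread between these samples, which may be technical in part. Where the replicate number is fitted as a block, they measure the spread left once differences between the numbers are removed. Age and sex of the animals are not given in the labels, and liver or cells at the start of culture were not analysed here, so that a fall since isolation cannot be read from these groups. Values are log2 RMA values, on which a difference of 1 is a 2-fold change.

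P450 enzymes sit in the membrane of the endoplasmic reticulum and take electrons from Por, the P450 reductase, and from cytochrome b5. Their genes answer to ligand-activated receptors: family 1 to the Ah receptor, subfamily 2B to the receptor CAR (Nr1i3), subfamily 3A to PXR (Nr1i2) and subfamily 4A to PPAR alpha. In the rat, several members of 2C, 3A and 2A are made mainly in males or mainly in females, under the pattern of growth hormone release. In the liver as a whole, infection, inflammation and interferons are known for lowering P450 activity, and many P450 transcripts are known to decline once hepatocytes are put in culture.

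The arrays resembled one another closely, with medians from 5.16 to 5.21 log2 and lower quartiles from 3.84 to 3.93. Any pair of arrays correlated at 0.979 to 0.997 (over probe sets), and no pair was identical in its values. All 7 of 7 measured hepatocyte markers, Alb among them, lay above the median on all 12 arrays. Interferon response genes rose in the same libraries: of 14 measured genes in that check, 1 rose at 3 h and 12 rose at 6 h in limma, and 5 and 14 did so with the replicate number as a block. Their median difference at 6 h was 2.89 log2. Markers of Kupffer, endothelial, stellate and bile duct cells and of lymphocytes had summed levels that overlapped between the 4 groups, and some of them differed between replicate numbers, as given with the replicates. Where the replicate numbers differed widely, as for Kupffer and bile duct markers, such an overlap could hide a shift between groups.

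P450 probe sets ranged from below the lower quartile to near the top of the scale. Of the 46 probe sets, 28 lay above the array median on all 12 arrays, 6 on some arrays only and 12 on none. The means over 12 arrays ran from 3.42 for Cyp2b12 to 13.84 for Cyp2e1, the enzyme that oxidises ethanol, while the highest value of any probe set on any array was 14.71. Besides Cyp2e1, the probe sets of Cyp2c7 (13.78), Cyp2c22 (13.63), Cyp2c6v1 (13.39), Cyp3a23-3a1 (13.39), Cyp2c12 (13.29), Cyp2d2 (13.26) and Cyp1a2 (13.08) had means above 13. Whether probe sets so near the top of the scale could show a further rise, or the full size of a fall, was not tested. Each probe set has its own affinity, so an order of levels between probe sets is not an order of transcript amounts. The 12 probe sets never above the median read Cyp1b1, Cyp2a2, Cyp2a3, Cyp2b12, Cyp2b21, Cyp2g1, Cyp2s1, Cyp3a2, Cyp4f5, both probe sets of Cyp4a8 and the dimmer one of Cyp4v3. Several of these are forms known from other tissues, such as Cyp2a3 and Cyp2g1 of the nasal mucosa. Cyp2a3 and Cyp2b12 lay below the lower quartile on all 12 arrays, and 6 members did so on at least 1 array. How much of such dim signals is background was not measured, and small differences could be hidden in it.

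Some sex-typed members are given against the median of the same arrays, and the choice is not complete. Cyp2c12, the female-specific steroid sulfate hydroxylase of rat liver, ran from 13.15 to 13.40 over the 12 arrays, above the array median on each. Its male-specific relatives in subfamily 2C, Cyp2c11 and Cyp2c13, ran from 4.47 to 5.55 and from 4.20 to 6.40, around the array median. Cyp2a2 and Cyp3a2, which are male-typed as well, ran from 3.73 to 4.32 and from 3.84 to 4.24. Cyp3a9, which predominates in females, ran from 9.96 to 12.61, and the male-typed Cyp3a18 from 7.85 to 9.91, each above the array median on all 12 arrays. Outside the P450s, the male liver genes Obp3 and Hsd3b5 had means of 3.89 and 3.10, and Sult2a1, a female-typed sulfotransferase, 2.99. The labels do not give sex, and how far these probe sets also read their near-identical relatives was not tested.

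The promoters of this strongly sex-typed pair, Cyp2c12 and Cyp2c11, are shown as examples of the 35 member promoters matched by symbol in RefSeq (assembly GRCr8), as the 250 bases before the gene's start, 5′ to 3′ on the gene's strand. Capitals mark the letters TATAAA, the TATA box, which begin 52 bases before the start in Cyp2c12 (chr1:248677035-248677284, minus strand) and 31 bases before it in Cyp2c11 (chr1:246174966-246175215, plus strand).
Cyp2c12: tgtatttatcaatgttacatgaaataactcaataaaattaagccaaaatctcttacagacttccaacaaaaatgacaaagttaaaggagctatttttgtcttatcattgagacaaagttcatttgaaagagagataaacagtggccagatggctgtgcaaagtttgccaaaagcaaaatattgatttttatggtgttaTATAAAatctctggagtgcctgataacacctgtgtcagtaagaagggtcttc
Cyp2c11: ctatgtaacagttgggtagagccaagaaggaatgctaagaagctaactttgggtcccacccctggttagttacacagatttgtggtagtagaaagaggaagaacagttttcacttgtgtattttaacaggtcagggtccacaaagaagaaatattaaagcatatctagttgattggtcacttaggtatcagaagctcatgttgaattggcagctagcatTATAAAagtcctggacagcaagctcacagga
On either strand, TATAAA occurred in 10 of the 35 member promoters (28.6%) and in 12.9% of all 33465 promoters of this length. Of these 10, 5 belonged to subfamily 2C (Cyp2c7, Cyp2c11, Cyp2c12, Cyp2c13 and Cyp2c22), and the others to Cyp1a2, Cyp2a1, Cyp2a3, Cyp2d3 and Cyp2e1. The letters AGGTCA, which nuclear receptors bind singly or as a repeat, occurred in 12 member promoters (34.3%), against 14.1% of all, those of Cyp2e1, Cyp3a23-3a1, Cyp3a2, Cyp4a3 and Cyp2c11 among them. Each motif was counted on its own, and matches of different motifs may overlap. A match of letters is a description of the sequence and not a shown binding site, and neighbouring P450 genes arose by duplication, so their promoters are not independent of one another. The tables used hold no promoter of Cyp1a1, Cyp2a2, Cyp2c6v1, Cyp4a1, Cyp4f4, Cyp4f17 or Cyp4v3.

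The remaining members are given by their mean and range over 12 arrays, by role. Among epoxygenases of arachidonic acid, Cyp2c23 was at 12.72 (12.55 to 12.81), and Cyp2j10 of the 2J subfamily, on which little is known, was at 7.33 (7.25 to 7.47). Cyp2u1, a hydroxylase of long-chain fatty acids, was at 5.62 (5.34 to 5.93), close above the array median, and Cyp4v3, of the subfamily linked to fatty acid metabolism in the eye, was at 9.18 (8.93 to 9.44) on its brighter and 4.22 (4.04 to 4.34) on its dimmer probe set. Cyp4f6 and Cyp4f5, of the leukotriene-oxidising subfamily, were at 9.03 (8.39 to 9.45) and 4.51 (4.27 to 4.80), and Cyp4f17 at 5.04 (4.42 to 6.10) spread over a wider range. Cyp4b1, known from lung, was at 5.08 (4.83 to 5.65). Of the 2B members other than Cyp2b3, Cyp2b21 was at 3.77 (3.42 to 3.97) and Cyp2b12, known from skin glands, at 3.42 (3.24 to 3.60). Cyp2a3, Cyp2g1 and Cyp2s1, which are known mainly from surface tissues such as airway and skin, were at 3.58 (3.35 to 3.79), 4.35 (4.21 to 4.66) and 4.37 (4.09 to 4.60). Cyp2d3 was at 12.16 (11.93 to 12.40), the brighter probe set of Cyp2d4 at 8.81 (8.40 to 9.14) and Cyp2c6v1 at 13.39 (13.19 to 13.58). In these probe sets the 12 arrays mostly lay within 1 log2 unit, with Cyp4f17 and Cyp4f6 the exceptions.

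**Figure D1:**
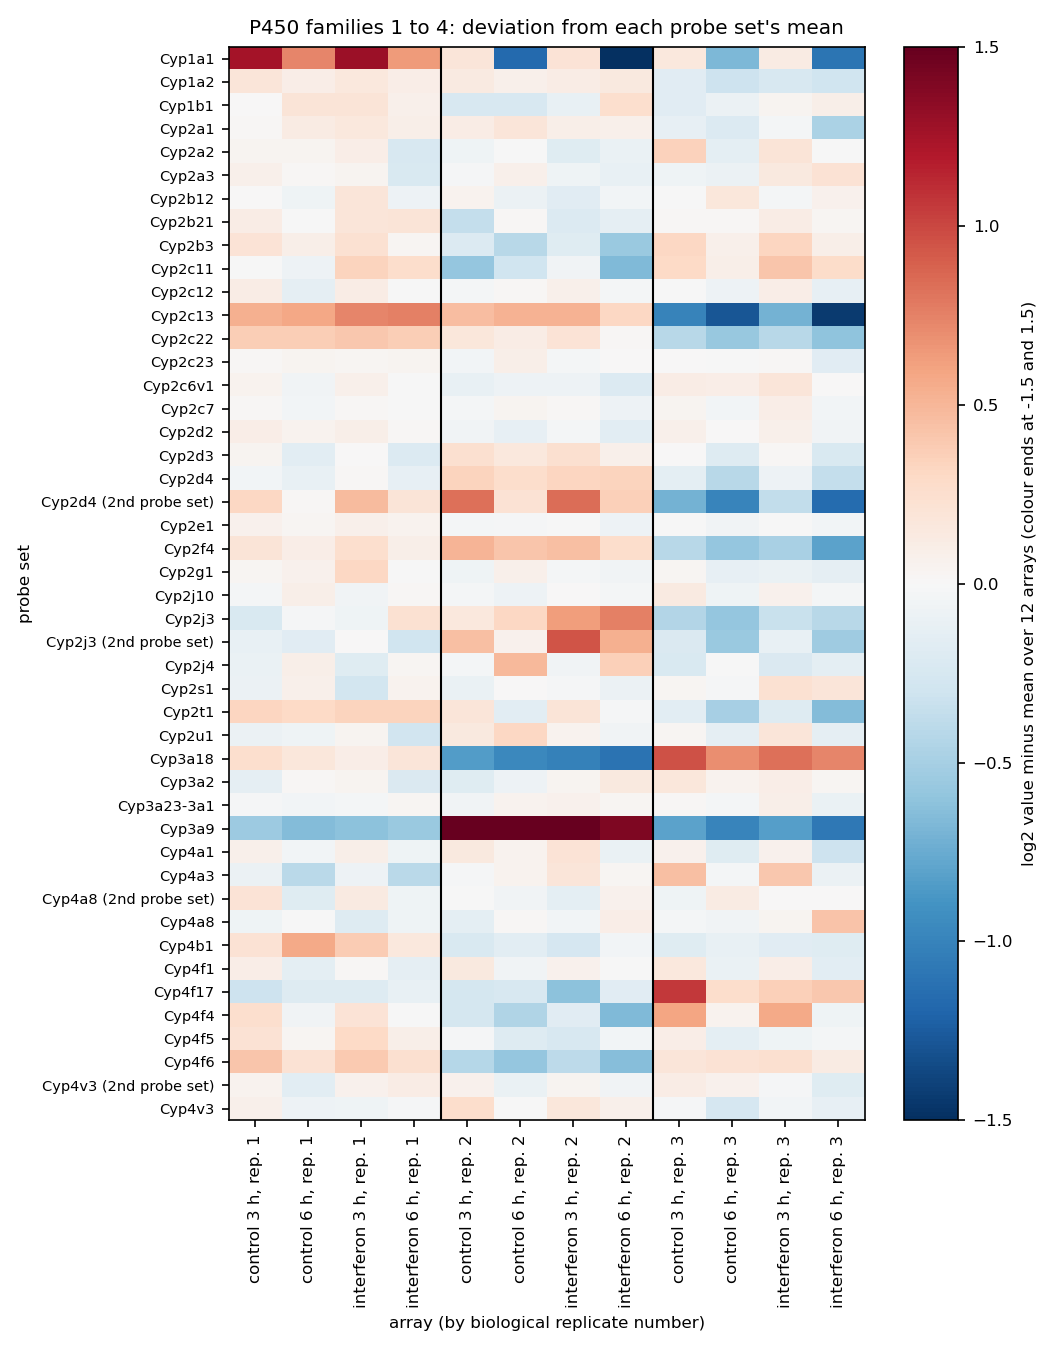
Deviation of each of the 46 P450 probe sets (rows) from its own mean over the 12 arrays (columns, ordered by replicate number), as a log2 difference on a colour scale that ends at -1.5 and 1.5. The blocks of 4 columns differ more from one another than the columns within a block, most visibly for Cyp3a9, Cyp3a18 and Cyp2c13, and Cyp1a1 is darker blue or less red at 6 h within each block.

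The first comparison asked whether interferon alpha changed P450 transcripts. No member was called in limma at an adjusted p under 0.05, at 3 h, at 6 h or over both times, against 0.00644%, 0.387% and 0.435% of all probe sets tested. At an unadjusted p under 0.05 the counts were again 0 of 46, against 2.95%, 3.69% and 4.48% of all. With the replicate number as a block, which removes differences between replicate numbers and tightens the error, the counts of called members were again 0, against 0.0966% of all probe sets at 3 h and 1.10% at 6 h as well as for the average. In that fit 2, 1 and 3 members had an unadjusted p under 0.05 (6.75%, 8.18% and 10.8% of all probe sets), and the smallest adjusted p were 0.654, 0.496 and 0.215. The median difference of the 46 members was 0.02 log2 at 3 h, -0.03 at 6 h and -0.01 for the average, beside -0.01, -0.02 and -0.01 over all probe sets. All of these comparisons use the same arrays and are not independent of one another.

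A call that is missing does not show that values were equal, so the intervals of the differences are given. With the block, the 95% interval of the interferon difference lay within 1.5-fold in either direction for 44 of 46 members at 3 h (95.7%, against 97.2% of all probe sets), for 45 at 6 h (97.8%, against 95.9%) and for all 46 when both times were averaged (100%, against 98.5%). Without the block the numbers were 32, 31 and 36 (84.6%, 83.6% and 92.6% of all probe sets). The 3 intervals that reached past this bound belonged to Cyp1a1 at 6 h (-0.33 log2, -0.76 to 0.10), Cyp4f17 at 3 h (-0.31 log2, -0.67 to 0.04) and Cyp2c11 at 3 h (0.33 log2, 0.06 to 0.60). For Cyp4f17 the highest array, at 6.10, was the control of replicate 3 at 3 h. With 3 arrays a group, changes smaller than these intervals span were not detectable.

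The member with the highest mean in each of 9 drug- and lipid-oxidising subfamilies is given by array, and most varied little over the 12 arrays. Several of these probe sets lie near the top of the scale, and how far that narrows their differences was not tested. Cyp1a2, which oxidises caffeine and aromatic amines, read 13.27, 13.22 and 12.91 in control cultures at 3 h, 13.19, 13.16 and 12.78 in control cultures at 6 h, 13.24, 13.19 and 12.84 with interferon at 3 h and 13.18, 13.23 and 12.79 with interferon at 6 h. Its average interferon difference was -0.01 log2 (95% interval with the block -0.11 to 0.09), and treated and control arrays overlapped at both times. Cyp2e1 read 13.90, 13.82 and 13.84 in control cultures at 3 h, 13.87, 13.83 and 13.79 in control cultures at 6 h, 13.92, 13.83 and 13.84 with interferon at 3 h and 13.89, 13.77 and 13.80 with interferon at 6 h. All 12 Cyp2e1 values thus lay in the range 13.77 to 13.92, with an interval of the average difference from -0.10 to 0.10.

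Cyp2c7, a retinoic acid hydroxylase, read 13.80, 13.76 and 13.82 in control cultures at 3 h, 13.75, 13.83 and 13.74 in control cultures at 6 h, 13.80, 13.80 and 13.88 with interferon at 3 h and 13.77, 13.71 and 13.74 with interferon at 6 h. Treated and control cultures again overlapped, and the average difference had an interval from -0.10 to 0.11. Cyp3a23-3a1, the form that PXR ligands induce, read 13.37, 13.34 and 13.40 in control cultures at 3 h, 13.35, 13.45 and 13.36 in control cultures at 6 h, 13.37, 13.45 and 13.48 with interferon at 3 h and 13.42, 13.42 and 13.29 with interferon at 6 h. The interval of its average difference ran from -0.09 to 0.14, and treated and control arrays overlapped at both times.

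Cyp2d2, the debrisoquine hydroxylase of the rat, read 13.36, 13.20 and 13.33 in control cultures at 3 h, 13.31, 13.13 and 13.27 in control cultures at 6 h, 13.34, 13.23 and 13.34 with interferon at 3 h and 13.27, 13.10 and 13.21 with interferon at 6 h. Replicate 2 was lowest in every group, while treatment moved it by -0.02 log2 on average (-0.12 to 0.08). Cyp2a1, a testosterone 7-alpha-hydroxylase, read 11.99, 12.07 and 11.84 in control cultures at 3 h, 12.09, 12.15 and 11.76 in control cultures at 6 h, 12.12, 12.05 and 11.93 with interferon at 3 h and 12.05, 12.05 and 11.49 with interferon at 6 h. The lowest of these was the treated array of replicate 3 at 6 h, the average difference was -0.04 (-0.18 to 0.11), and the groups overlapped. For Cyp2b3, Cyp4a1 and Cyp4f1, whose arrays are given with the comparison of times, the average interferon differences were -0.02 (-0.13 to 0.09), -0.03 (-0.15 to 0.08) and -0.04 log2 (-0.14 to 0.06). Treated and control arrays of Cyp2b3 and Cyp4a1 overlapped at both times, and those of Cyp4f1 at 6 h. At 3 h the treated arrays of Cyp4f1 all lay below its control arrays. That difference was -0.08 log2 (-0.22 to 0.07) and was not called (adjusted p = 0.858 in limma with the block). Across families, 18 of 46 average differences were above 0 and 28 below it (60.9%, against 55.6% of all probe sets).

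The member with the smallest blocked p was Cyp2j3, an epoxygenase of arachidonic acid. Its brighter probe set read 8.60, 8.98 and 8.39 in control cultures at 3 h, 8.81, 9.13 and 8.25 in control cultures at 6 h, 8.76, 9.45 and 8.49 with interferon at 3 h and 9.05, 9.58 and 8.41 with interferon at 6 h. The groups overlapped, because replicate 2 was high and replicate 3 low throughout, yet the treated array was the higher one in all 6 pairs of the same number and time. These pair differences were 0.17, 0.47 and 0.10 log2 at 3 h and 0.24, 0.45 and 0.16 at 6 h. Their average, 0.26 log2 (0.10 to 0.43 with the block), did not pass over all probe sets in limma (adjusted p = 0.215 with the block). The dimmer probe set of Cyp2j3 was 0.18 log2 higher on average, in 5 of 6 pairs (adjusted p = 0.479 with the block). Cyp2j3 was the only member with all 6 pairs on one side of 0, in the interferon comparison, and it was picked out of 46 by its p.

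Cyp1b1, which oxidises polycyclic hydrocarbons and oestradiol and is known mainly from tissues outside the liver, had the smallest p without the block for the average of both times. It read 4.48, 4.24 and 4.31 in control cultures at 3 h, 4.67, 4.24 and 4.39 in control cultures at 6 h, 4.67, 4.36 and 4.52 with interferon at 3 h and 4.56, 4.74 and 4.57 with interferon at 6 h. Treated arrays were higher in 5 of 6 pairs, the groups overlapped, and the average difference of 0.18 log2 did not pass (adjusted p = 0.402 with the block). Cyp2c11, singled out after its values were seen, read 5.13, 4.56 and 5.43 in control cultures at 3 h, 5.06, 4.83 and 5.22 in control cultures at 6 h, 5.47, 5.08 and 5.55 with interferon at 3 h and 5.39, 4.47 and 5.41 with interferon at 6 h. It too was higher with interferon in 5 of 6 pairs, with replicate 2 the lowest in each group, and its average of 0.19 did not pass (adjusted p = 0.461 with the block). Cyp4a8, a fatty acid omega-hydroxylase, read 4.32, 4.25 and 4.37 in control cultures at 3 h, 4.39, 4.41 and 4.33 in control cultures at 6 h, 4.20, 4.35 and 4.44 with interferon at 3 h and 4.32, 4.49 and 4.82 with interferon at 6 h on its brighter probe set. Its average difference of 0.09 log2 (adjusted p = 0.674 with the block) went with 1 high array, the treated one of replicate 3 at 6 h, and its dimmer probe set was at -0.00617.

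**Figure D2:**
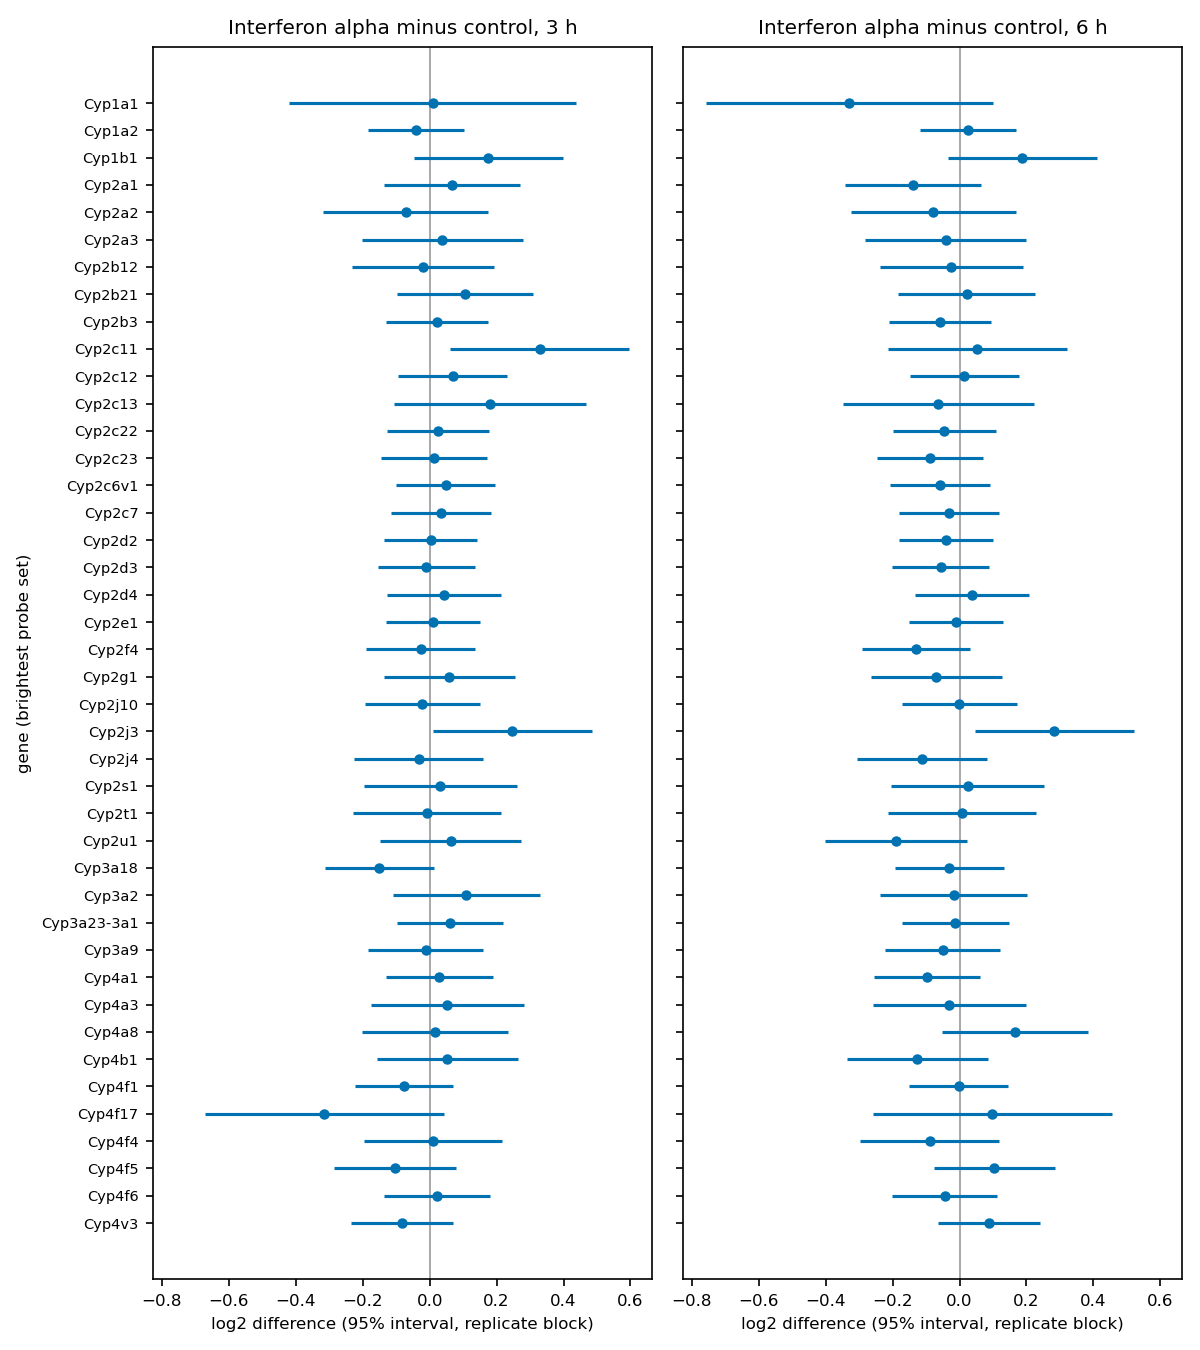
Interferon alpha minus control for the brightest probe set of each of the 42 P450 genes, at 3 h (left) and 6 h (right), as a log2 difference with its 95% interval from the limma fit with the replicate block. Most intervals span 0 and lie within -0.58 and 0.58 (1.5-fold), and the widest belong to Cyp1a1 and Cyp4f17.

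Whether the interferon effect on P450s differed between 6 h and 3 h was asked with the interaction of the fit. In limma 0 of 46 members were called, with or without the block, 0 had an unadjusted p under 0.05 in either fit (2.17% of all probe sets without and 4.72% with the block), and the share of all probe sets called was 0%. The differences of the effects ran from -0.34 log2 for Cyp1a1 (-0.95 to 0.27) to 0.41 for Cyp4f17 (-0.09 to 0.92), and 33 of 46 were below 0 (71.7%, against 51.2% of all probe sets). At 3 h 16 of 46 interferon differences were below 0 (34.8%, against 54.4% of all), and at 6 h 29 (63.0%, against 55.7%). The median was -0.07, beside -0.00386 for all probe sets.

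The interferon-stimulated response element is the DNA sequence that the factor activated by interferon alpha binds, and the searched form of its core was GAAA repeated after 2 bases of any kind, on both strands. It occurred in 0 of 35 member promoters and in 3.41% of all promoters. Among 10 genes of the interferon check with a promoter it occurred in 5, namely Cxcl10, Ifit3, Irf7, Oas1a and Rsad2. A window of 30 bases from the promoter of Cxcl10, the chemokine that rose most at 3 h among the check genes (4.98 log2), shows the motif in capitals for contrast (GRCr8, chr14:15988816-15988845, plus strand).
Cxcl10: cgctttgGAAAGTGAAActtaactcactca
The letters TTCNNNGAA, a form of the site bound by Stat factors, occurred in 3 member promoters (8.57%), those of Cyp2j4, Cyp2t1 and Cyp4a8, and in 7.67% of all. The absence of these letters from 250 bases says nothing on elements elsewhere or in other spellings.

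Genes that serve or control P450s were looked at beside them, and none was called in limma without the block for interferon. That held for 21 receptors and partners, 17 electron donors and haem genes, 4 Ah receptor targets, 16 PPAR alpha targets, 13 genes of the growth hormone axis, 18 P450s of other families and 19 acute phase and NF-kB genes, at 3 h, at 6 h and for the average. Without the block 0.00644%, 0.387% and 0.435% of all probe sets were called in these comparisons, so a count of 0 does not set these genes apart. With the block 1 gene was called, against 0.0966% of all probe sets at 3 h and 1.10% at 6 h as well as for the average. It was Hmox2, a haem-degrading oxygenase, which was 0.60 log2 higher at 6 h (adjusted p = 0.0273, and 0.179 without the block). For the average of both times, Por was at -0.08 log2, Alas1, the first enzyme of haem synthesis, at -0.18, Nr1i2 at 0.22 and Nr1i3 at -0.32, with blocked adjusted p of 0.692, 0.415, 0.311 and 0.342.

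The second comparison asked how P450 transcripts differed between the 6 h and 3 h time points, averaged over control and treated cultures. In treated cultures these hours count from the start of treatment, on the day after isolation. P450 values were mostly lower at 6 h: 38 of 46 members (82.6%) had a difference below 0, against 46.9% of all probe sets, and the median was -0.10 log2 beside 0.01 over all. Without the block limma called 0 of 46 members (3.89% of all probe sets were called, and 5 members had an unadjusted p under 0.05, against 16.6% of all). With the block it called 12 (26.1%), of which 11 fell and 1 rose, against 18.4% of all probe sets (10.0% lower and 8.43% higher). In that fit 16 members had an unadjusted p under 0.05, against 29.2% of all. Of the 46 members 30 were brighter than the median probe set, and the shares given here were not split by level. The 11 that fell came from subfamilies 1A, 2B, 2D, 2F, 2J, 2T, 4A and 4F, while 0 of 7 members of 2C and 0 of 4 of 3A were called. In bulk RNA, fewer cells that express a gene and less RNA per cell cannot be told apart. The blocked errors are the ones quoted below, since arrays of one replicate number shared most of their deviations.

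Cyp1a1, which oxidises polycyclic aromatic hydrocarbons and is the classical target of the Ah receptor, fell most with the block. It read 10.34, 9.28 and 9.26 in control cultures at 3 h, 9.83, 7.93 and 8.42 in control cultures at 6 h, 10.37, 9.31 and 9.22 with interferon at 3 h and 9.73, 7.45 and 8.00 with interferon at 6 h. Replicate 1 was highest in every group, so that the groups overlapped, but every replicate was lower at 6 h than at 3 h in both arms. The average fall was -1.07 log2, 2.1-fold (-1.37 to -0.77, adjusted p = 0.000412 with the block and 0.25 without it). In control cultures alone it was -0.90 log2 and in treated ones -1.24, and the difference between these was not called (-0.34, -0.95 to 0.27). Cyp1a2, its neighbour on chromosome 8, was at -0.06 log2 (-0.16 to 0.04) and Cyp1b1 at 0.10 (-0.06 to 0.25), neither of them called.

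Fatty acid hydroxylases of family 4 were the next group. Cyp4f4, of the subfamily that inactivates leukotriene B4, read 9.76, 9.26 and 10.11 in control cultures at 3 h, 9.46, 9.06 and 9.56 in control cultures at 6 h, 9.73, 9.34 and 10.09 with interferon at 3 h and 9.51, 8.85 and 9.45 with interferon at 6 h. It fell by 0.40 log2 (-0.54 to -0.25, adjusted p = 0.00179 with the block), in 6 of 6 pairs, while the groups overlapped because replicate 3 was high at 3 h and replicate 2 low throughout. Cyp4f1, of the same subfamily, read 11.49, 11.54 and 11.55 in control cultures at 3 h, 11.25, 11.33 and 11.29 in control cultures at 6 h, 11.40, 11.46 and 11.48 with interferon at 3 h and 11.25, 11.38 and 11.24 with interferon at 6 h. Here all 6 arrays at 3 h lay above all 6 at 6 h, although the fall was no more than -0.20 log2 (-0.30 to -0.09), and its adjusted p was 0.0137 with the block and 0.0561 without it.

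Cyp4a1, the clofibrate-inducible omega-hydroxylase of lauric acid, read 12.25, 12.33 and 12.24 in control cultures at 3 h, 12.14, 12.23 and 11.99 in control cultures at 6 h, 12.27, 12.39 and 12.25 with interferon at 3 h and 12.12, 12.08 and 11.87 with interferon at 6 h. In both arms its 3 arrays at 6 h lay below its 3 at 3 h, and it fell by 0.22 log2 (-0.33 to -0.10, adjusted p = 0.0119 with the block). Cyp4a3, which lies next to Cyp4a1 on chromosome 5, read 10.38, 10.45 and 10.91 in control cultures at 3 h, 10.06, 10.52 and 10.44 in control cultures at 6 h, 10.39, 10.65 and 10.87 with interferon at 3 h and 10.06, 10.49 and 10.38 with interferon at 6 h. Replicate 2 of the control cultures was the exception, slightly higher at 6 h, and the average fall was -0.28 log2 (-0.45 to -0.12, adjusted p = 0.0196 with the block). The other members of 4F, Cyp4f5, Cyp4f6 and Cyp4f17, were at -0.10, -0.14 and -0.01 log2 and were not called, nor was Cyp4b1 at 0.08.

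Within family 2, Cyp2b3, a constitutive 2B form, read 12.09, 11.68 and 12.20 in control cultures at 3 h, 11.97, 11.47 and 11.96 in control cultures at 6 h, 12.12, 11.71 and 12.21 with interferon at 3 h and 11.92, 11.33 and 11.98 with interferon at 6 h. Replicate 2 was lowest in each group, and each replicate was lower at 6 h in both arms, by 0.23 log2 on average (-0.34 to -0.12, adjusted p = 0.00746 with the block). Cyp2d4, the 2D form known from brain, read 6.57, 7.08 and 5.54 in control cultures at 3 h, 6.27, 6.47 and 5.26 in control cultures at 6 h, 6.73, 7.09 and 5.88 with interferon at 3 h and 6.44, 6.61 and 5.09 with interferon at 6 h on its dimmer probe set. That probe set fell in 6 of 6 pairs, by 0.46 log2 (-0.61 to -0.30, adjusted p = 0.00121 with the block), whereas the brighter probe set of the gene, at -0.13 (-0.25 to -0.01), was not called (adjusted p = 0.121). The 2 probe sets of Cyp2d4 therefore differ in call, and which transcripts each reads is not known here.

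Cyp2j3 showed a wider disagreement of the same kind. Its dimmer probe set, above the array median on 3 arrays only, read 4.78, 5.33 and 4.66 in control cultures at 3 h, 4.71, 4.95 and 4.32 in control cultures at 6 h, 4.88, 5.82 and 4.78 with interferon at 3 h and 4.58, 5.42 and 4.35 with interferon at 6 h. It was lower at 6 h in 6 of 6 pairs, by 0.32 log2 (-0.50 to -0.14, adjusted p = 0.0208 with the block), while the brighter probe set was at 0.09 (-0.07 to 0.26) and was not called. Cyp2t1, a form of unassigned function, read 8.07, 7.93 and 7.59 in control cultures at 3 h, 8.05, 7.59 and 7.25 in control cultures at 6 h, 8.08, 7.94 and 7.56 with interferon at 3 h and 8.08, 7.73 and 7.09 with interferon at 6 h. Replicate 1 barely moved, replicates 2 and 3 were lower at 6 h, and the average fall was -0.23 log2 (-0.39 to -0.07, adjusted p = 0.0443 with the block). Cyp2d3 and Cyp2f4, the naphthalene-oxidising form of lung, were also called, at -0.18 (adjusted p = 0.0175) and -0.17 log2 (adjusted p = 0.0425 with the block), and are outside the 8 largest falls of the rule for named genes, so they were chosen after their values were seen.

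Cyp2j4, an epoxygenase of the 2J subfamily that lies beside Cyp2j3 on chromosome 5, was the member that rose. It read 9.96, 10.03 and 9.83 in control cultures at 3 h, 10.14, 10.55 and 10.05 in control cultures at 6 h, 9.88, 10.00 and 9.84 with interferon at 3 h and 10.09, 10.41 and 9.91 with interferon at 6 h. In control cultures its 3 arrays at 6 h lay above its 3 at 3 h, in treated cultures the groups overlapped, and each of the 6 pairs was higher at 6 h. The rise was 0.27 log2 (0.13 to 0.41, adjusted p = 0.011 with the block and 0.221 without it). This rise was between the times: with interferon Cyp2j4 was lower in 5 of 6 pairs, by -0.07 log2 on average (-0.21 to 0.06 with the block), and was not called. Its promoter is shown because it belongs to the single riser among members and holds a Stat-type match (TTCNNNGAA), in capitals, beginning 160 bases before the start (GRCr8, chr5:116323043-116323292, minus strand, 5′ to 3′).
Cyp2j4: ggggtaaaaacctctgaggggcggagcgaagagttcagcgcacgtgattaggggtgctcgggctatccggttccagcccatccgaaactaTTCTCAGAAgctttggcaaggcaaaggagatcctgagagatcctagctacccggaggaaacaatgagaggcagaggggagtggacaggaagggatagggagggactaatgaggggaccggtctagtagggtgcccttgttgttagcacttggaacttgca
Cyp2t1, which fell, and Cyp4a8, which was not called, hold a match to the same letters.

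**Figure D3:**
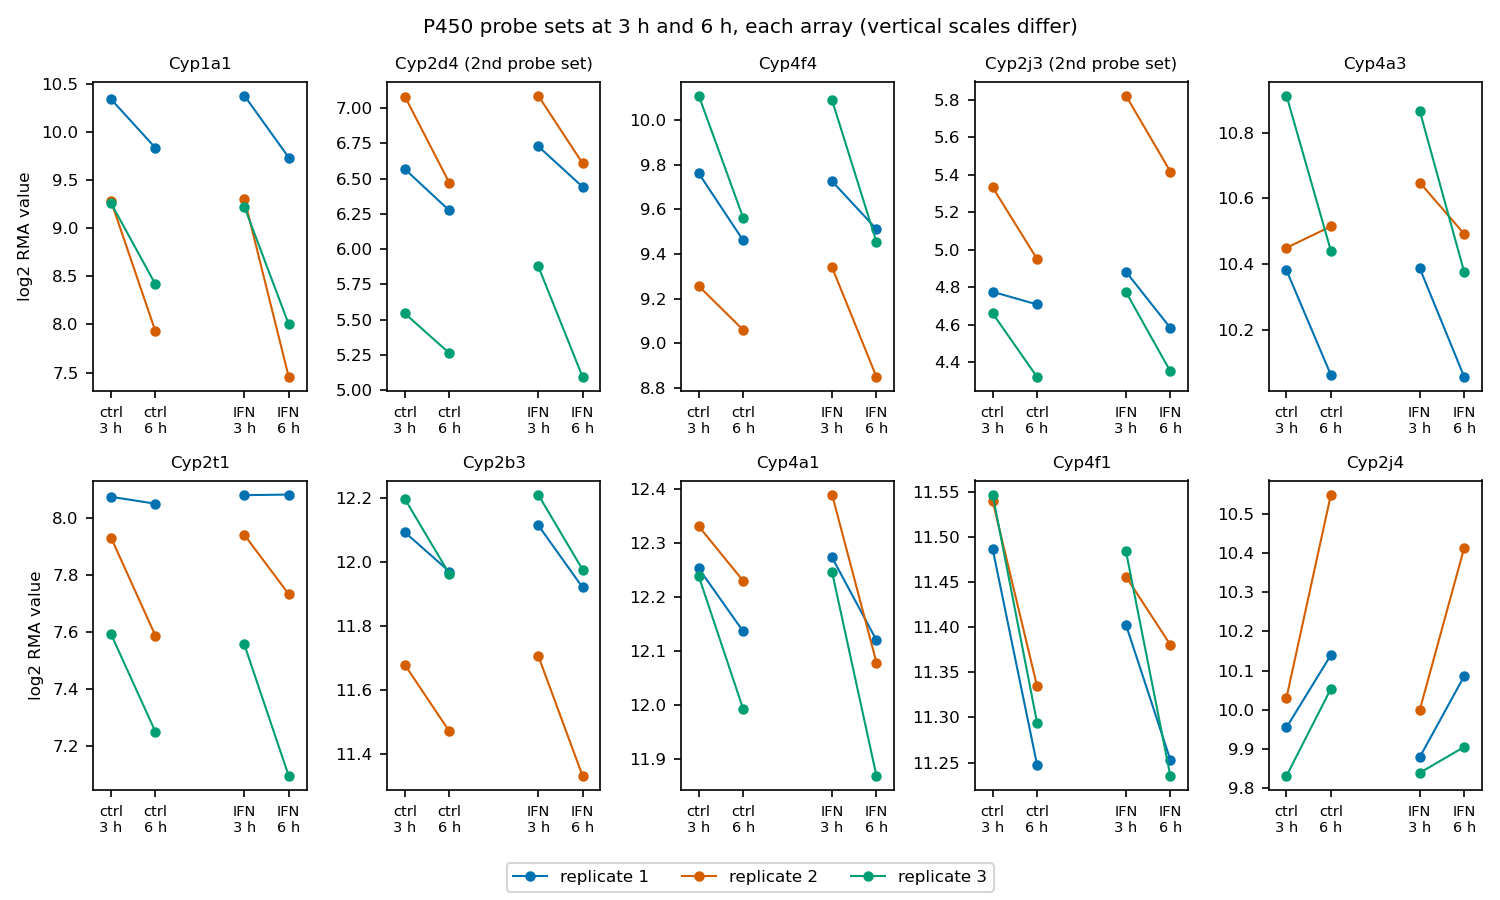
Log2 RMA value (vertical axis, scale set per panel) of 10 P450 probe sets called in the comparison of 6 h with 3 h with the replicate block, in control (ctrl) and interferon-treated (IFN) cultures, with arrays of one replicate number joined by a line. Each line falls for Cyp1a1, Cyp4f4, Cyp2b3, Cyp4a1, Cyp4f1 and the dimmer probe sets of Cyp2d4 and Cyp2j3, and each line rises for Cyp2j4, while 1 line of Cyp4a3 and 1 of Cyp2t1 do not fall.

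How far the calls with the block rest on single arrays was checked by leaving out each of the 12 in turn. Cyp1a1, Cyp2b3, Cyp2d4, Cyp2j4, Cyp4a1, Cyp4f1 and Cyp4f4 passed each time. Cyp2d3 missed the threshold without the treated 3 h array of replicate 3 (adjusted p = 0.0546). Cyp4a3 missed it when any 1 of the 4 arrays of replicate 3, or replicate 1's control array at 6 h, was left out (up to 0.0577). Cyp2j3 did so without the control 3 h or treated 6 h array of replicate 3, the treated 3 h array of replicate 2 or the treated 6 h array of replicate 1 (up to 0.0599). Cyp2t1 missed it without any 1 of the 8 arrays of replicates 2 and 3 (up to 0.119). Cyp2f4 passed only without the control 3 h or the treated 6 h array of replicate 1 (otherwise up to 0.113). Without all 4 arrays of replicate 1, 2 or 3 the blocked count was 8, 5 and 4, and Cyp1a1, Cyp2d4 and Cyp4f4 passed in each. With the replicate number as a random block 5 passed: Cyp1a1 (0.0216), Cyp4f1 (0.0140), Cyp4a1 (0.0189), Cyp2j4 (0.0365) and Cyp4f4 (0.0401).

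**Figure D4:**
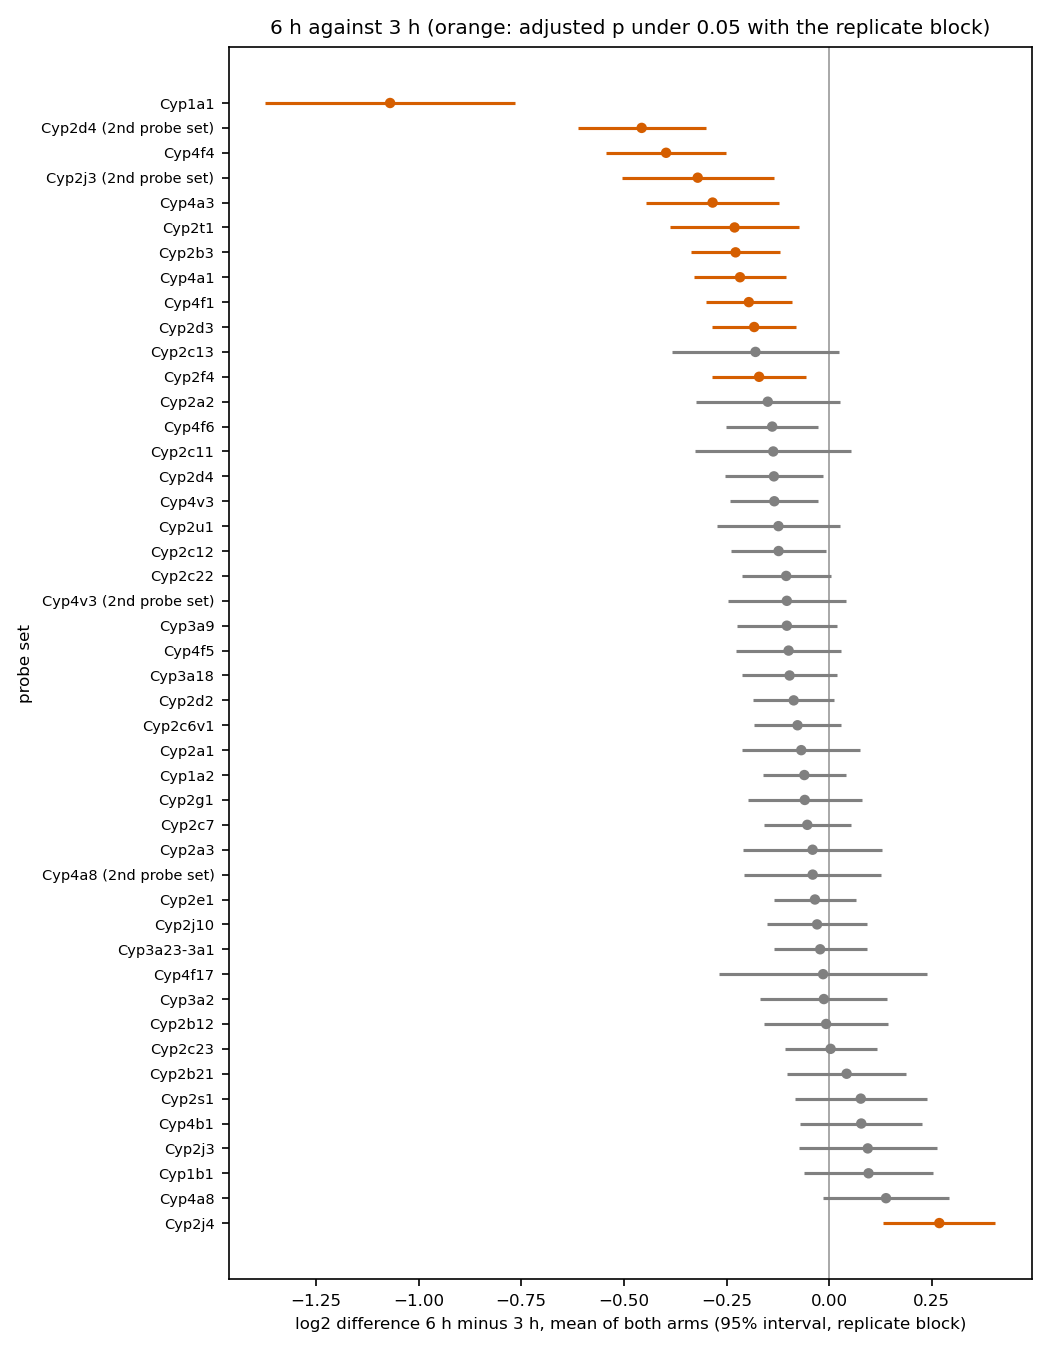
Difference between 6 h and 3 h, averaged over control and treated cultures, for all 46 P450 probe sets in order of size, as log2 with the 95% interval of the limma fit with the replicate block. Orange marks the 12 probe sets with an adjusted p under 0.05, 11 of them below 0 and Cyp2j4 above it, and Cyp1a1 lies farthest from 0 at -1.07.

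In control cultures alone, where no cytokine was added, 0 of 46 members were called without the block (0.190% of all probe sets, and 1 member with an unadjusted p under 0.05, against 10.1% of all). With the block 3 members fell (6.52%) and 0 rose, against 8.15% of all probe sets, and 12 had an unadjusted p under 0.05, against 21.9% of all. The 3 that fell were Cyp1a1 (adjusted p = 0.019), the dimmer probe set of Cyp2d4 (-0.40 log2, 0.0356) and Cyp4f4 (-0.35 log2, 0.0449). Each call was lost without certain single arrays: that of Cyp1a1 without any 1 of the control arrays of replicates 2 and 3 (up to 0.0830), that of Cyp2d4 without any 1 control array or the treated 3 h array of replicate 2 (up to 0.144), and that of Cyp4f4 without any 1 array except the treated 6 h arrays of replicates 1 and 3 (up to 0.188). The share of members called was no larger here than that of all probe sets.

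Receptors and partners moved both ways over the same hours. Of 21 measured, 5 rose and 4 fell with the block, and 1 rose without it, with a median of 0.00374 log2. Over all probe sets 8.43% rose and 10.0% fell with the block, and 3.89% were called without it, with a median of 0.01 log2. The same shares stand beside the other counts of this paragraph. Foxa2, a pioneer factor of liver genes, rose by 0.95 log2 (adjusted p = 0.0154 without the block), and Ahr and Arnt, which together form the factor that drives Cyp1a1, rose by 0.32 and 0.41 (adjusted p = 0.0227 and 0.0112 with the block). Cebpa and Cebpb rose by 0.35 and 0.38, while Nr1h3 (LXR alpha), Nr1h4 (FXR), Onecut1 and Foxa1 changed by -0.63, -0.57, -0.42 and -0.36 log2, all called with the block. Of 4 other Ah receptor targets, Nqo1 fell with the block by 0.24 log2 (adjusted p = 0.00781) and Tiparp was at 0.12 (adjusted p = 0.62). Of 16 other PPAR alpha targets, 2 rose and 6 fell with the block (1 and 2 without it), with a median of -0.13 log2. Cpt2 of the carnitine shuttle fell by 0.43 and Vnn1 by 0.34, whereas the secreted factors Angptl4 and Fgf21 rose by 0.84 and 0.94 log2.

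Of 17 electron donors and haem genes, 2 rose and 5 fell with the block (1 and 1 without it), with a median of -0.12 log2. For this list and those below, 18.4% of all probe sets were called with the block (8.43% higher and 10.0% lower) and 3.89% without it. No test of the lists against these shares was made. The haem synthesis enzymes Alad, Urod and Cpox fell by 0.32, 0.29 and 0.35 log2, Blvrb and Cyb5b by 0.35 and 0.19, and Cyb5r3 and Pgrmc2 rose by 0.21 and 0.24. Alas1 was at 0.19 and Por at -0.01, neither called. Of 13 genes of the growth hormone axis 3 rose (Stat5b by 0.41, Cish by 0.42 and Socs2 by 0.23) and Akr1b7 fell by 0.47 with the block (1 and 1 without it). Of 19 acute phase and NF-kB genes, Rela and Nfkb1 rose by 0.49 and 0.29 and Icam1 fell by 0.34 with the block (1 and 0 without it). Of the markers of cell types, 0 of 7 for hepatocytes, 0 of 6 for Kupffer cells, 0 of 6 for stellate cells and 0 of 4 for lymphocytes were called between the times. Epcam of bile duct cells, which was bright in all arrays, rose by 0.18 log2 (adjusted p = 0.0265) and Stab2 of endothelium fell by 0.22 (adjusted p = 0.0332 with the block), and their part in the P450 differences was not tested.

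The widest P450 differences lay between replicate numbers. In an F test of the replicate number in limma, 26 of 46 members were called (56.5%), against 29.9% of all probe sets. Bright probe sets are called more often in general, so the share was read by level: of 30 members brighter than the median probe set 20 were called (66.7%, against 50.5% of such probe sets), and of the 16 others 6 (37.5%, against 9.26% of such probe sets). The range between the 3 replicate means had a median of 0.28 log2 over members and 0.17 over all probe sets, or 0.36 and 0.28 among the brighter ones. It exceeded 1 log2 in 5 members (10.9%, against 3.20% of all and 5.64% of the brighter ones). Among the 26, the highest mean was that of replicate 1 in 9, of replicate 2 in 10 and of replicate 3 in 7, and the lowest was that of replicate 1 in 1, of replicate 2 in 11 and of replicate 3 in 14.

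Subfamily 3A held the widest differences, and they ran in opposite directions. Cyp3a9 read 10.49, 12.55 and 10.23 in control cultures at 3 h, 10.38, 12.59 and 10.04 in control cultures at 6 h, 10.42, 12.61 and 10.20 with interferon at 3 h and 10.47, 12.43 and 9.96 with interferon at 6 h. The 4 arrays of replicate 2 were far above all others, with replicate means (± SD, n = 4 arrays) of 10.44 ± 0.05, 12.55 ± 0.08 and 10.11 ± 0.13, a 5.42-fold range (adjusted p = 3.42e-09 in limma). Cyp3a18 read 9.21, 8.12 and 9.91 in control cultures at 3 h, 9.13, 7.99 and 9.65 in control cultures at 6 h, 9.06, 7.95 and 9.78 with interferon at 3 h and 9.14, 7.85 and 9.69 with interferon at 6 h. Here replicate 2 was lowest and replicate 3 highest on every array, with means of 9.13 ± 0.06, 7.98 ± 0.11 and 9.76 ± 0.11, 3.44-fold apart. The other members of the subfamily, Cyp3a23-3a1 and Cyp3a2, were not called, with ranges between replicate means of 0.04 and 0.16 log2. The promoters of the pair with opposite patterns are set side by side, as the 250 bases before the start, 5′ to 3′ on the gene's strand (GRCr8, Cyp3a9 at chr12:21960161-21960410, minus strand, and Cyp3a18 at chr12:13994062-13994311, plus strand).
Cyp3a9: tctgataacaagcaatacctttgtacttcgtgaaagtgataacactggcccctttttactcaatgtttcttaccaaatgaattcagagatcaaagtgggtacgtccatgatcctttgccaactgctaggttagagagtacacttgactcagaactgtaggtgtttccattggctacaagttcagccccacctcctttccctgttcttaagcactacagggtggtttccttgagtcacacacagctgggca
Cyp3a18: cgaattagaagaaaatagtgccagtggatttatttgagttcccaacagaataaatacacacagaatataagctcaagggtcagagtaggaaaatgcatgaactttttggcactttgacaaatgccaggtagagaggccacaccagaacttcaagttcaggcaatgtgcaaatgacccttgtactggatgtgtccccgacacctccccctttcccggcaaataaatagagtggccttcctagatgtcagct
On neither strand does either promoter hold the TATA box, the nuclear receptor letters, the Stat-type site or the interferon element searched here, nor the core letters of the Ah receptor element (GCGTG, in 6 member promoters, 17.1%, and in 25.9% of all), so both are printed without capitals.

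In subfamily 2C, Cyp2c13 read 6.18, 6.11 and 4.63 in control cultures at 3 h, 6.22, 6.16 and 4.36 in control cultures at 6 h, 6.37, 6.16 and 4.93 with interferon at 3 h and 6.40, 5.95 and 4.20 with interferon at 6 h. Replicate 3 was below all other arrays in every group, and the replicate means of 6.29 ± 0.11, 6.10 ± 0.10 and 4.53 ± 0.32 spanned a 3.39-fold range; the probe set is of a kind that can read several transcripts. Cyp2c22, a retinoic acid hydroxylase, read 14.00, 13.81 and 13.22 in control cultures at 3 h, 14.01, 13.74 and 13.06 in control cultures at 6 h, 14.04, 13.84 and 13.22 with interferon at 3 h and 14.00, 13.65 and 13.03 with interferon at 6 h. Replicate 1 was highest, replicate 3 lowest and the 3 numbers did not overlap, with means 1.84-fold apart. Cyp2c7 and Cyp2c12, by contrast, had ranges of 0.02 and 0.05 log2 and were not called. For Cyp2c11 the means were 5.26 ± 0.20, 4.73 ± 0.28 and 5.40 ± 0.14, with replicate 2 lowest (1.59-fold, adjusted p = 0.00109).

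Cyp1a1, whose arrays are given above, was 2.98-fold apart between replicates 1 and 2, with means of 10.07 ± 0.33, 8.49 ± 0.94 and 8.72 ± 0.62. Cyp2f4 read 9.50, 9.82 and 8.90 in control cultures at 3 h, 9.41, 9.73 and 8.73 in control cultures at 6 h, 9.56, 9.76 and 8.82 with interferon at 3 h and 9.40, 9.57 and 8.50 with interferon at 6 h. Replicate 3 was lowest in each group, with means of 9.47 ± 0.08, 9.72 ± 0.11 and 8.74 ± 0.17 and a 1.97-fold range. The dimmer probe set of Cyp2d4 and the brighter one of Cyp2j3 also had replicate 3 lowest and replicate 2 highest, with means of 6.50 ± 0.19, 6.81 ± 0.32 and 5.44 ± 0.34 for Cyp2d4 and 8.81 ± 0.19, 9.29 ± 0.28 and 8.39 ± 0.10 for Cyp2j3. Their ranges were 2.58-fold and 1.87-fold.

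**Figure D5:**
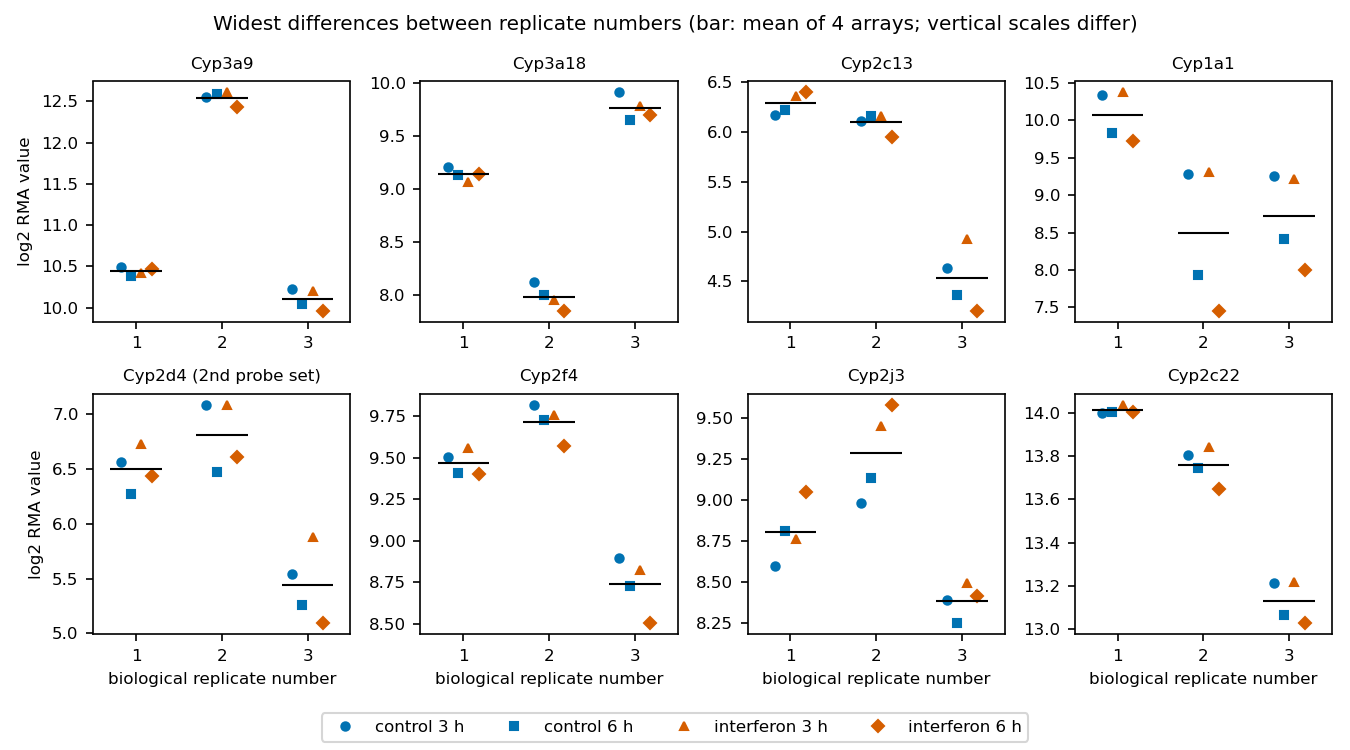
Log2 RMA value (vertical axis, scale set per panel) of the 8 P450 genes with the widest range between replicate means, by biological replicate number, with 1 point per array and a bar at the mean of 4 arrays. Cyp3a9 is 5.42-fold apart with replicate 2 highest and Cyp3a18 3.44-fold apart with replicate 2 lowest, while control (blue) and interferon (orange) points of a number mostly lie close together.

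Levels of markers of some other cell types differed between the replicate numbers as well. The summed level of 6 measured of 8 Kupffer cell markers ran from 450 to 555 in replicate 1, 163 to 187 in replicate 2 and 293 to 360 in replicate 3, with 5 of the 6 called in the F test and Adgre1 below the lower quartile on all arrays. For 5 of 6 endothelial markers the sums were 99.8 to 133, 80.1 to 85.5 and 76.3 to 90.8, and for 4 of 5 bile duct markers 1757 to 2018, 3021 to 3392 and 2414 to 3054, nearly all of it Epcam, with Krt19 below the lower quartile on all arrays. Stellate markers (6 of 6, Lrat below the lower quartile on all arrays) summed to 186 to 228, 182 to 192 and 197 to 224, lymphocyte markers (4 of 6) to 63.4 to 68.1, 62.6 to 67.3 and 66.2 to 69.3, and hepatocyte markers (7 of 8) to 76758 to 79230, 80936 to 83226 and 74616 to 77384. The actin control's excess of 3′ over 5′ signal in log2 units, which grows with RNA breakdown, ran from 0.608 to 0.694, from 0.672 to 0.785 and from 0.583 to 0.694, and that of the GAPDH control from 0.0661 to 0.107, from 0.0759 to 0.123 and from 0.0570 to 0.133, so that the ranges of both overlapped between the numbers. The part of the marker differences in the P450 ranges was not tested.

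Genes that control or serve P450s were read in the same F test, which called 29.9% of all probe sets and 50.5% of the brighter ones. In it 15 of 21 receptors and partners, 10 of 17 electron donors and haem genes, 13 of 16 PPAR alpha targets, 8 of 13 genes of the growth hormone axis, 2 of 4 Ah receptor targets and 10 of 19 acute phase and NF-kB genes were called, and 0 of 14 interferon response genes. Several of these shares lie near that of the brighter probe sets. Nr1i2 had replicate means of 9.55, 9.35 and 8.72, Nr1i3 of 7.74, 8.14 and 7.31 and Por of 12.23, 11.71 and 11.76. Ahr had means of 9.36, 9.45 and 8.91. Of its other targets, Tiparp had 9.14, 8.30 and 8.58 and Nqo1 12.11, 11.86 and 12.55, and Aldh3a1 and Ahrr were not called.

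Many members lie in clusters, and neighbours did not always share a call. In the RefSeq annotation of GRCr8, 18 of the 42 genes lie on chromosome 1, 8 on chromosome 7, 7 on chromosome 5, 4 on chromosome 12, 2 on chromosome 8 and 1 each on chromosomes 2, 6 and 16. Cyp4a3 and Cyp4a1 are neighbours and both fell between 3 h and 6 h with the block, and so are Cyp2f4 and Cyp2t1. Cyp1a1 and Cyp1a2 are neighbours, and Cyp1a1 alone was called, while Cyp2j4 rose beside Cyp2j3, whose probe sets had opposite signs. Cyp2c13 and Cyp2c22 are neighbours and had replicate 3 lowest in both, with Cyp2c12 on the other side of Cyp2c13 within 0.05 log2. No test of neighbourhood was made.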

How the data were processed

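RNA of 12 hepatocyte cultures was measured on Affymetrix arrays, from biotin-labelled cRNA made from 5 µg of total RNA, per the labels' protocols. What the authors deposited are log2 RMA values made with affy in R 2.10.0, as the submitters' processing notes state. By its method RMA corrects background, equalises the distributions of the arrays and summarises probes, which removes global shifts and compresses low values. They were used as deposited. Of 31099 probe sets, 57 control probe sets were left out. The platform annotation gives 1 symbol to 20832 probe sets and several to 436, and all 46 members matched RefSeq (GRCr8) by Entrez ID with 0 changed symbols.

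All 4 groups were fitted together in limma 3.58.1 (R 4.3.3; lmFit and eBayes), and p-values were adjusted by the Benjamini-Hochberg method over all 31042 probe sets, at a threshold of 0.05. The fit had 8 residual degrees of freedom, and 6 with the replicate number as a block. Same-numbered arrays deviated together (correlation 0.651 to 0.829 at the same time, 6 pairs; 0.479 to 0.736 across times, 12 pairs), and arrays of different numbers did not (-0.562 to -0.0747). The deviations sum to 0 within each group, so the negative values largely follow from the positive ones and are not separate evidence. From the labels' replicate numbers and the same-number correlations, the numbers were taken to pair the arrays. The number of arrays limits the precision. The script was tested on simulated data. Named genes are all members called with or without the block (at most the 8 largest changes each way), the 3 with the smallest p for interferon and the brightest of 9 subfamilies. From the lists, genes that were called are named, and otherwise a few by their role. The members and lists were chosen with earlier results of these data known. Alternatives covered the filter on dim probe sets, renormalization, centring, trend, weights, blocks and leaving out arrays.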

Additional observations from a re-analysis of the deposited data

How the results depend on the processing

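The interferon counts (3 h, 6 h, average and difference) were 0 of 46 under each alternative run, the replicate block included. The count of members that differed between replicate numbers, 26, stayed between 21 and 28. For 6 h against 3 h averaged over both arms, 0 members were called without the block and 12 with it. The filter on dim probe sets or a second quantile normalization gave 1 (Cyp4f1). The block without replicate 1, 2 or 3 gave 8, 5 and 4, and without 1 array it gave from 8 to 12 (8 for 3 arrays, 9 for 2, 10 for 4, 11 for 2 and 12 for 1). For control cultures alone the count was 0 without the block and 3 with it, 1 without replicate 1 and 0 without replicate 2 or 3, and 0 to 3 without 1 array. In settings chosen after seeing the data, the block gave 16 and 9 calls with limma-trend, 13 and 6 with the filter on dim probe sets, 12 and 4 with array weights, and 5 and 0 as a random effect, for the average and the control arm in that order. The cause of these shifts was not tested. A block within each time absorbs time, so it was run for interferon comparisons only. Among the named members, no difference called in the main fit or in an alternative had the opposite sign in the other. Signs of differences called in neither were not compared. The number of arrays limits what could be called, and dim probe sets carry an unknown share of background.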

Other observations

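Cytochromes P450 outside families 1 to 4, which make bile acids, steroids and prostanoids, held 1 gene, Cyp7a1, with a larger fall between 3 h and 6 h than any of the 46 members. Of 18 such genes measured, 1 rose and 4 fell between 3 h and 6 h with the replicate block, and 0 were called without it in limma. Of all probe sets, 18.4% were called with the block (8.43% higher and 10.0% lower) and 3.89% without it. Cyp7a1, the rate-limiting enzyme of bile acid synthesis, fell by 2.30 log2 (adjusted p = 0.000467 with the block), while its replicate means were 10.80, 10.69 and 6.23, so that replicate 3 stood far below the others. Cyp17a1, of steroid synthesis, fell by 0.60 log2, Cyp39a1, an oxysterol hydroxylase, by 0.35 and Ptgis, the prostacyclin synthase, by 0.25, and Cyp27a1, a mitochondrial sterol hydroxylase, rose by 0.16 (adjusted p = 0.000543, 0.00465, 0.02 and 0.0415 with the block). Cyp8b1, which sets the share of cholic acid, was at 0.05 log2 between the times and had replicate means of 9.42, 10.86 and 9.44, with replicate 2 highest. For interferon 0 of the 18 were called in limma, with or without the block, against at most 1.10% of all probe sets in any of its comparisons.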
